A study of Mus musculus with 9 samples.

Results

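The AP-1 transcription factor genes examined here are Fos, Fosb, Fosl1, Fosl2, Jun, Junb, Jund, Atf3, Batf and Maff. They were chosen by name, as the rows of the deposited gene table whose Ensembl identifier has one of these symbols in GENCODE M21, and they account for 10 of 28137 rows. All 10 passed the filter on low values, a mean FPKM (fragment counts scaled to exon length and library size) of 0.5 or more, in each comparison. Expression was measured by mRNA-seq in RAW264.7, a mouse macrophage-like line that the labels describe as monocyte-macrophage leukemia cells. The 9 libraries comprised 3 labeled NC siRNA (a negative control), 3 labeled SFRP2 siRNA and 3 labeled RAB6A siRNA. Per the labels, every group received siRNA at 60 nM for 6 h, was kept for 12 h in complete medium, and was then stimulated with lipopolysaccharide (LPS) at 100 ng/ml, with RNA taken 24 h later. The titles of all libraries carry the time 6H. The study's methods give other transfection conditions and add IFN-γ to the LPS. All 3 groups were thus transfected and stimulated, and no unstimulated library was analysed here. The sources used here do not state whether the 3 SFRP2 siRNA libraries received the same siRNA. The study's supplement lists 3 numbered siRNAs besides the NC siRNA, and the titles of the SFRP2 siRNA libraries carry the same numbers. Titles of the NC and RAB6A siRNA libraries are numbered in the same way. The labels do not say that replicates came from separate cultures, so that p-values measure the spread between these libraries, which may be technical.

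AP-1 is a family of basic leucine zipper (bZIP) dimers. Jun proteins pair with one another or with Fos proteins, whereas Fos proteins need a Jun partner, and the dimers bind the TPA response element (TRE) TGACTCA or the cAMP response element (CRE) TGACGTCA. Atf3 and Batf dimerize with Jun proteins and can restrain or redirect AP-1 activity, and Maff is a small Maf protein without a transactivation domain. In macrophages stimulated with LPS, MAP kinases induce many of these genes within the immediate early response, and their products act on cytokine and protease genes.

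The NC libraries held 41608379 to 47149258 recovered reads, the SFRP2 siRNA libraries 34743304 to 40562562 and the RAB6A siRNA libraries 32758729 to 37833882, all of these fewer than any NC library. Each AP-1 gene was covered by 279 to 14513 reads per library. Sfrp2 had 2 to 4 reads in every library, so that its level is no check of the SFRP2 siRNA label. Rab6a was at 24.3, 27.3 and 25.5 FPKM in the NC libraries and at 21.2, 20.7 and 20.4 FPKM in the libraries labeled RAB6A siRNA, which did not overlap (exact two-sided permutation p = 0.1, the smallest possible with 3 libraries against 3). These groups did not overlap for 77.4% of 12712 genes tested either, so that the lower Rab6a level is a weak check of the label. Of 10 macrophage markers, 9 were expressed, with Cd68 at 1850.0 ± 110.0 FPKM (mean ± SD, n = 3) in the NC group, while Mertk reached at most 0.0731 FPKM in any library. The summed FPKM of the 5 fibroblast, 4 epithelial, 2 T cell and 3 endothelial markers stayed under 3.33 per list in every library, and Cd3d and Cd2 were at 0 in most libraries. Between the RAB6A siRNA and NC groups, Lyz2, Csf1r, Spi1 and Fcgr1 fell among the macrophage markers (log2 fold changes -2.03, -1.44, -1.05 and -0.75) and Ptprc rose (0.17), while Cd14 (0.21), Itgam (0.09), Adgre1 (-0.00029) and Cd68 (-0.14) did not pass the test. Of 5 LPS response markers, Cxcl10, Il6 and Tnf fell (log2 fold changes -1.14, -0.94 and -0.67). Il1b rose (0.21), and Nos2 (0.20) did not pass the test. Of all genes tested, 36.5% were called lower and 37.6% higher. The part of the macrophage and LPS response markers in the results on AP-1 genes was not tested.

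Promoter windows were taken from RefSeq sequences on GRCm38.p6, as the 250 bases before each annotated start, for 9 of the 10 genes, and Fosl1 had no entry. Those of Fos, Jun, Atf3 and Maff are shown as examples of windows that hold a CRE, a CRE core or the related variant TGACATCA, and because both directions of change in the RAB6A siRNA group occur among these genes. The Batf window, which also holds a CRE core, is not shown. Capitals mark the motifs searched, and positions count back from the base before the start, which is -1. The Fos window, chr12:85473640-85473889 on the + strand, holds the CRE core TGACGT from -66 to -61 and a TATA box, TATAAA, from -33 to -28. The Jun window, chr4:95052223-95052472 on the - strand, holds the Jun-type TRE variant TGACATCA from -45 to -38 and a CCAAT box from -65 to -61. The Atf3 window, chr1:191183334-191183583 on the - strand, holds the CRE core as ACGTCA from -8 to -3. This RefSeq start lies 34706 bases inside the gene as GENCODE draws it. Maff has 3 RefSeq starts, and the window of the second, chr15:79347270-79347519 on the + strand, holds a whole CRE, TGACGTCA, from -29 to -22.
Fos: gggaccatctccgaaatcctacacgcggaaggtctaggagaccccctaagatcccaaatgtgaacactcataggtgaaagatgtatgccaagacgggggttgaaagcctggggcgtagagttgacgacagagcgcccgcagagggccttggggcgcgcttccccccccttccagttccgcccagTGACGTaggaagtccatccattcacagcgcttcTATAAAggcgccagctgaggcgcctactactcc
Jun: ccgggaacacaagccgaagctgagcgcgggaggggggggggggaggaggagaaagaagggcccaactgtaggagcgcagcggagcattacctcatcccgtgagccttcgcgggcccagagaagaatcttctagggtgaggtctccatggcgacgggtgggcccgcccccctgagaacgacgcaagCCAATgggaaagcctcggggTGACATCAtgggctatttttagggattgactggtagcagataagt
Atf3: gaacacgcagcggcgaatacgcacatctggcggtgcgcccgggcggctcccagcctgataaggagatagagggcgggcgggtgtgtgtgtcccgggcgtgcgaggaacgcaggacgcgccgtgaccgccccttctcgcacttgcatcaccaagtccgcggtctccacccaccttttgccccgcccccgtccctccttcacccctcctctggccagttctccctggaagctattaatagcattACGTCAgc
Maff: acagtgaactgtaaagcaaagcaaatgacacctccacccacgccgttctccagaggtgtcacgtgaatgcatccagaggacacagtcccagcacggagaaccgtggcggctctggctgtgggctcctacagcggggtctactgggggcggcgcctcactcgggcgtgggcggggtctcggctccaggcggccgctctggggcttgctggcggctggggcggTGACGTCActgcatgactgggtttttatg

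Both strands were searched, and every CRE also counts as a CRE core. Among 32851 RefSeq promoters cut to the same length, TGACGTCA was held by 1.55%, the CRE core ACGTCA by 6.47%, TGACATCA by 2.93%, TATAAA by 12.4%, CCAAT by 33.9%, TGACTCA by 4.46% and the CArG box by 1.47%. Batf held the CRE core from -98 to -93, the third Maff start TGACATCA from -45 to -38, and Junb a CCAAT box from -36 to -32. The windows of Fosb, Fosl2, Jund and the first Maff start held none of the motifs, and TGACTCA and the CArG box were found in no window. The RefSeq start of Jund lies at -1210 relative to its GENCODE gene start, and that of Fosl2 lies 671 bases inside the gene. The Jund window thus does not cover the bases next to the GENCODE start. Sites farther than 250 bases before a start were not searched, so that these absences hold for the windows only. These matches are letters in a window, and binding was not measured.

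Short-lived mRNAs often carry AU-rich elements, which the zinc finger protein Zfp36 (tristetraprolin) binds to promote decay. The heptamer TATTTAT, searched on the sense strand of the 3′ UTR of each gene's longest GENCODE M21 transcript, was found in 8 of the 10 AP-1 genes, against 29.8% of 14274 coding genes with a 3′ UTR. Junb and Batf were without it, Fosl2 held 3 copies, Fos and Maff 2 each, and the other genes 1 each. The sites of the 4 genes above are shown with 9 bases on either side and with the heptamer in capitals, on GRCm38. The Fos sites lie at chr12:85477105-85477129 and chr12:85477129-85477153 (+), the Jun site at chr4:95049081-95049105 (-), the Atf3 site at chr1:191170340-191170364 (-) and the Maff sites at chr15:79358780-79358804 and chr15:79358979-79359003 (+).
Fos site 1: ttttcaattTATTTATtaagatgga
Fos site 2: attctcagaTATTTATatttttatt
Jun site: gcttgtgcaTATTTATaatagcgtt
Atf3 site: aatattactTATTTATcccagtatt
Maff site 1: ccacactctTATTTATtgcacgaat
Maff site 2: cccagagttTATTTATtttctgact

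In the NC group, Junb had the highest level of the 10 genes at 122 ± 6.49 FPKM (mean ± SD, n = 3), followed by Atf3 at 62.6 ± 0.831 and Jun at 25.2 ± 1.30. Fos followed at 15.9 ± 0.759 FPKM. The ranges of these 4 genes did not overlap with one another. Batf (12.6 ± 1.11), Fosl1 (9.92 ± 1.83) and Maff (8.61 ± 0.330) came next, and the ranges of Batf and Fosl1 and of Fosl1 and Maff overlapped. Jund (6.42 ± 0.678), Fosl2 (4.45 ± 0.425) and Fosb (1.27 ± 0.0454) were the lowest, without overlap between neighbours. Junb and Atf3 lay at the 98.7th and 97.2nd percentiles of 24360 genes above 0 in this group, and Fosb at the 58.6th percentile. The SFRP2 siRNA group had the same order, with overlap between Batf and Fosl1 and between Maff and Jund. In the RAB6A siRNA group Junb, Atf3 and Jun kept ranks 1 to 3, Jund stood at rank 4, Fosl2 at rank 5 and Fos at rank 8.

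**Figure D1:**
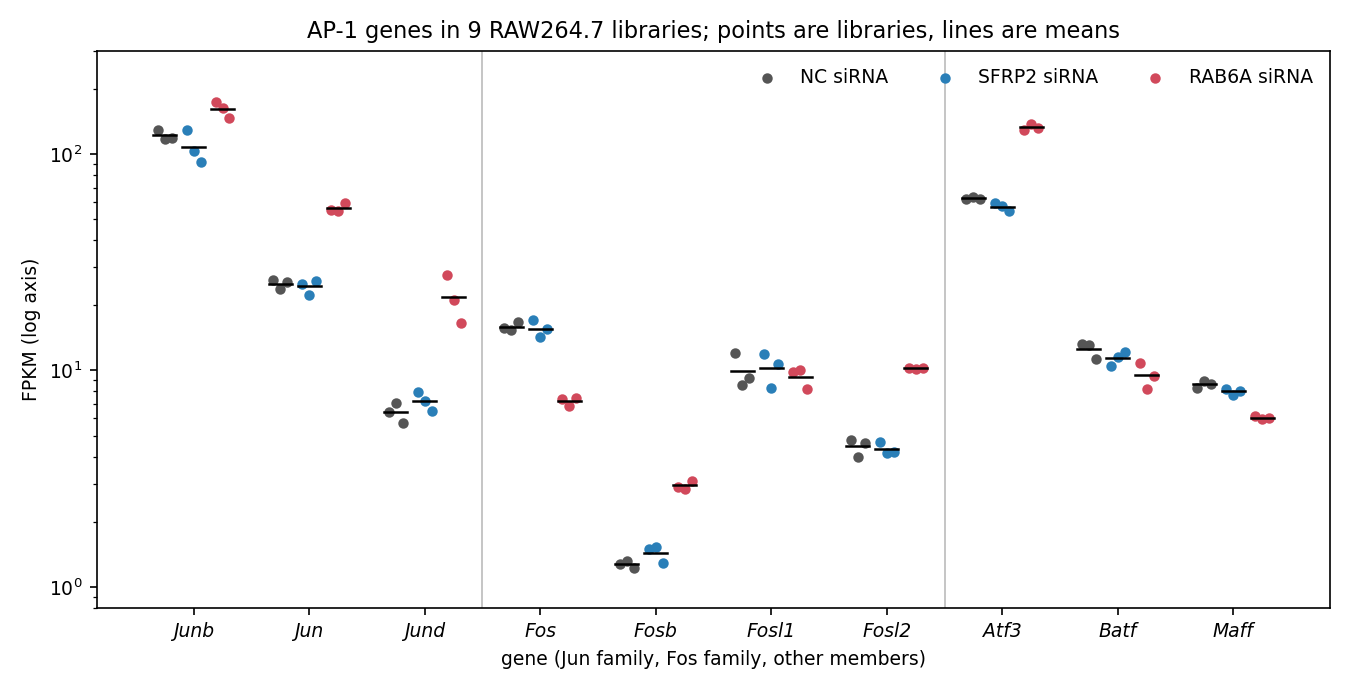
FPKM of the 10 AP-1 genes in each library on a log axis, by siRNA group, with each point a library and each line the mean of 3 libraries. The RAB6A siRNA libraries lie above the NC libraries for Junb, Jun, Jund, Fosb, Fosl2 and Atf3, and below them for Fos, Batf and Maff, while the SFRP2 siRNA libraries overlap with the NC libraries for 8 genes.

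To examine the RAB6A siRNA group, its libraries were compared with the NC libraries. Jun, Junb, Jund, Fosb, Fosl2 and Atf3 rose, Fos, Batf and Maff fell, and Fosl1 did not pass the test (limma on log2(FPKM + 0.1), Benjamini-Hochberg adjusted p under 0.05). Thus 6 of 10 AP-1 genes were called higher, against 37.6% of 12712 genes tested, and 3 of 10 were called lower, against 36.5%. Most genes were called in this comparison, and these shares are the background against which the 9 calls stand. With the study's further criterion for DEGs, an absolute log2 fold change over 1, 5 genes were higher (background 17.3%) and Fos alone was lower (background 12.8%). Among the higher genes, Fosb did not meet this criterion with a pseudocount of 1 (log2 0.79) or with scaling by quantiles (0.94). Jun, Jund, Fosl2, Atf3 and Fos met it under all 19 alternatives. The groups did not overlap for 9 of the 10 genes, against 77.4% of all genes tested. The median absolute log2 fold change was 1.11 over the AP-1 genes and 0.63 over all genes tested, and the median signed log2 fold change was 0.74 and 0.03.

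Among the Jun family, Jun (ENSMUSG00000052684), the founding member and a substrate of JNK kinases, lies on chromosome 4 from 95049034 to 95052222 (- strand) and has 1 exon. Jun was at 26.2, 23.7 and 25.6 FPKM in the NC libraries and at 54.9, 54.4 and 59.2 FPKM in the RAB6A siRNA libraries. Every RAB6A siRNA library was above every NC library, with little spread within either group. The difference was 2.23-fold (log2 fold change 1.16, SE 0.06, adjusted p = 4.4e-06 with limma).

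Jund (ENSMUSG00000071076), often found at a steady level in resting cells and known to slow growth, lies on chromosome 8 from 70698949 to 70700616 (+ strand) and has 1 exon. Its levels were 6.42, 7.10 and 5.74 FPKM in the NC libraries and 27.5, 21.2 and 16.6 FPKM in the RAB6A siRNA libraries. The groups were far apart, although the RAB6A siRNA libraries spread by 25.3% of their mean. Jund had the largest fold change of the 10 genes in this comparison, 3.30-fold (log2 1.72, SE 0.18, limma adjusted p = 7.4e-05). Its longest transcript has a GC content of 67.1%, at the 99.7th percentile of named genes. After a correction for GC content and exon length its log2 fold change was 1.29 (limma adjusted p = 0.00011). Of its exon bases, 52.6% are shared with the antisense gene Gm11175, which was not analysed here. The strand setting of the counting is not given in the sources used here, so that reads of both strands cannot be told apart.

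Junb (ENSMUSG00000052837), a Jun protein that is a weaker activator than Jun at many sites, lies on chromosome 8 from 84974484 to 84978718 (- strand). Its longest transcript has 1 exon. It was at 129, 117 and 119 FPKM in the NC libraries and at 174, 163 and 146 FPKM in the RAB6A siRNA libraries. These groups did not overlap, but the gap between them was narrower than for Jun and Jund. The rise of 1.32-fold (log2 0.40, SE 0.08, limma adjusted p = 0.0025) was the smallest of the 6 genes called higher. The longest transcript of Junb has a GC content of 62.6%, at the 98.7th percentile. After a correction for GC content and exon length, the log2 fold change of Junb was 0.14 with a limma adjusted p of 0.058, so that the call was lost.

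Among the Fos family, Fos (ENSMUSG00000021250), the transient immediate early partner of Jun, lies on chromosome 12 from 85473890 to 85477273 (+ strand), and its longest transcript has 4 exons. Fos was at 15.7, 15.3 and 16.8 FPKM in the NC libraries and at 7.38, 6.84 and 7.44 FPKM in the RAB6A siRNA libraries. All RAB6A siRNA libraries were below all NC libraries by a wide margin. The level in the RAB6A siRNA group was 0.457 times that of NC (log2 -1.13, SE 0.07, limma adjusted p = 5.4e-06).

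Fosl2 (ENSMUSG00000029135, Fra-2), a longer-lived Fos protein without the strong activation domain of Fos, lies on chromosome 5 from 32135801 to 32157842 (+ strand). It was at 4.75, 3.97 and 4.64 FPKM in the NC libraries and at 10.3, 10.2 and 10.3 FPKM in the RAB6A siRNA libraries. The RAB6A siRNA libraries were nearly equal to one another and all above NC. The rise was 2.28-fold (log2 1.19, SE 0.08, limma adjusted p = 1.1e-05).

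Fosb (ENSMUSG00000003545), an immediate early Fos protein known for long-lived splice forms, lies on chromosome 7 from 19302696 to 19310051 (- strand). Its levels were low, at 1.28, 1.31 and 1.22 FPKM in the NC libraries and 2.90, 2.83 and 3.10 FPKM in the RAB6A siRNA libraries. The groups did not overlap, and the rise was 2.22-fold (log2 1.15, SE 0.09, limma adjusted p = 2.5e-05). Gene-level values do not separate its splice forms.

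Fosl1 (ENSMUSG00000024912, Fra-1), itself a target of AP-1 in many cells, lies on chromosome 19 from 5447547 to 5455946 (+ strand). It was at 12.0, 8.55 and 9.20 FPKM in the NC libraries and at 9.87, 10.0 and 8.24 FPKM in the RAB6A siRNA libraries. The groups overlapped, with the first NC library above all others of both groups. The log2 fold change was -0.07 with a 95% interval of -0.39 to 0.25 (limma adjusted p = 0.66), and it was -0.34 with an adjusted p of 0.040 after the correction for GC content and exon length. Fosl1 shares 57.2% of its exon bases with Ccdc85b on the opposite strand, which was at 2.47, 2.29 and 2.48 FPKM in the NC libraries and at 5.68, 5.01 and 4.18 FPKM in the RAB6A siRNA libraries.

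Of the other members, Atf3 (ENSMUSG00000026628), a stress-induced factor that represses LPS-induced cytokine genes, lies on chromosome 1 from 191170296 to 191218039 (- strand). Atf3 was at 62.2, 63.5 and 62.0 FPKM in the NC libraries and at 129, 138 and 132 FPKM in the RAB6A siRNA libraries. Both groups were tight and lay far apart. The rise was 2.12-fold (log2 1.09, SE 0.05, limma adjusted p = 2.8e-06).

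Batf (ENSMUSG00000034266), a bZIP factor that pairs with Jun proteins and binds with interferon regulatory factors, lies on chromosome 12 from 85686669 to 85709087 (+ strand). It was at 13.3, 13.2 and 11.3 FPKM in the NC libraries and at 10.9, 8.23 and 9.44 FPKM in the RAB6A siRNA libraries. The groups were adjacent without overlap, and the level fell to 0.754 times that of NC (log2 -0.41, SE 0.11, limma adjusted p = 0.012). After the correction for GC content and exon length its log2 fold change was -0.85.

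Maff (ENSMUSG00000042622), a small Maf protein that pairs with Nfe2l and Bach factors, lies on chromosome 15 from 79346621 to 79359076 (+ strand). It was at 8.26, 8.92 and 8.66 FPKM in the NC libraries and at 6.14, 5.99 and 6.01 FPKM in the RAB6A siRNA libraries. All RAB6A siRNA libraries were below NC and close together. The level fell to 0.706 times that of NC (log2 -0.50, SE 0.06, limma adjusted p = 0.00017). In bulk samples such as these, less RNA per cell and fewer cells that express a gene cannot be told apart.

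**Figure D2:**
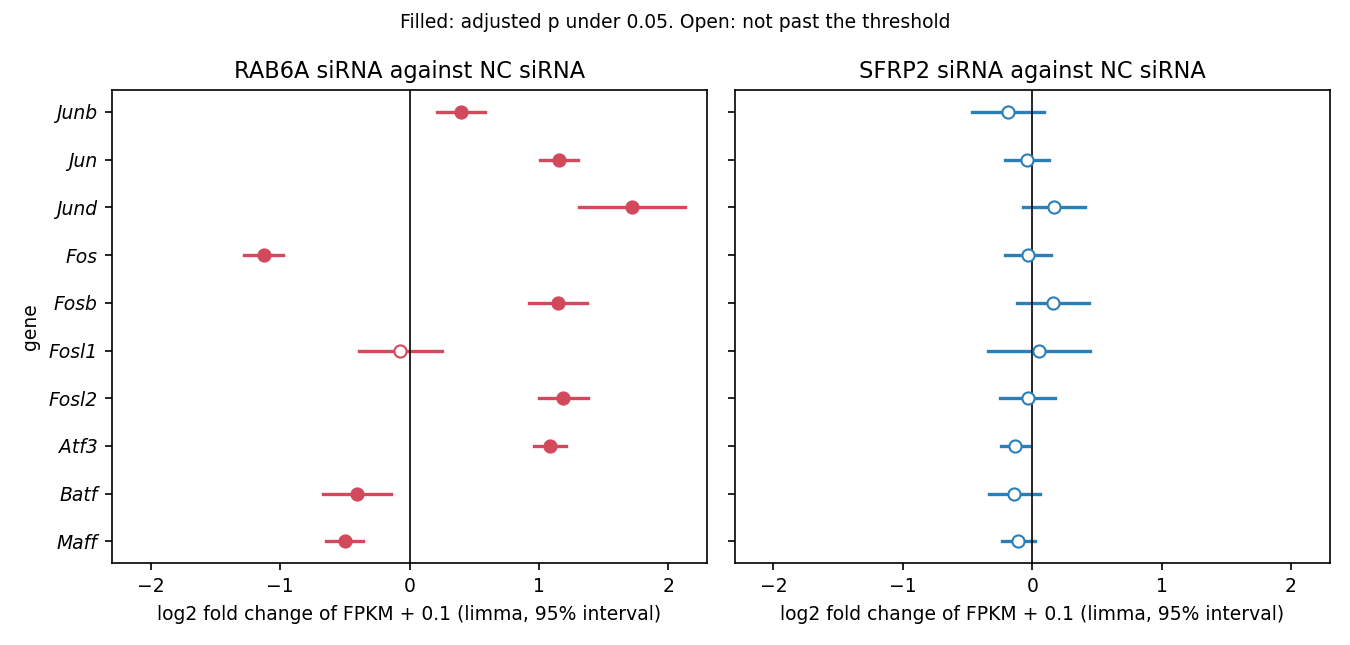
Log2 fold changes of FPKM + 0.1 with 95% intervals from limma for the 10 AP-1 genes, RAB6A siRNA against NC on the left and SFRP2 siRNA against NC on the right. Filled points have an adjusted p under 0.05 and are found for 9 genes on the left and 0 on the right.

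The makeup of the Jun and Fos families was then described as shares of the summed FPKM of each family, a measure chosen after the levels were seen. The summed FPKM of Fos, Fosb, Fosl1 and Fosl2 was 31.6 ± 2.29 in the NC group, 31.7 ± 3.48 in the SFRP2 siRNA group and 29.8 ± 0.665 in the RAB6A siRNA group (means ± SD, n = 3), and the ranges overlapped. Within this sum Fos made up 46.5%, 52.5% and 52.7% in the NC libraries and 24.3%, 22.9% and 25.6% in the RAB6A siRNA libraries. Fosl2 made up 14.1%, 13.6% and 14.6% in the NC libraries and 33.7%, 34.1% and 35.4% in the RAB6A siRNA libraries. Neither share overlapped between these groups, and the order of Fos and Fosl2 was opposite in them. The ratio of Fos to Fosl2 was 3.59 ± 0.283 in the NC group, 3.59 ± 0.140 in the SFRP2 siRNA group and 0.705 ± 0.0280 in the RAB6A siRNA group. Fosb held 4.05 ± 0.400% of the family sum in the NC group and 9.89 ± 0.657% in the RAB6A siRNA group, while Fosl1 held 31.3 ± 3.75% and 31.4 ± 2.72%.

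The summed FPKM of Jun, Junb and Jund was 153 ± 7.42 in the NC group and 239 ± 17.1 in the RAB6A siRNA group. Junb was the largest part in every library, at 79.9%, 79.2% and 79.2% in the NC libraries and 67.8%, 68.3% and 65.8% in the RAB6A siRNA libraries. Jun held 16.4 ± 0.530% in the NC group and 23.6 ± 2.72% in the RAB6A siRNA group, and Jund held 4.19 ± 0.528% and 9.04 ± 1.64%. For the shares of Junb, Jun, Jund, Fos, Fosb and Fosl2 and for the ratio, the RAB6A siRNA and NC groups did not overlap, and the exact two-sided permutation p was 0.1, the smallest that 3 libraries against 3 allow. In all, 12 such quantities were compared, and at this group size none could pass 0.05. Between the SFRP2 siRNA and NC groups, only the share of Jund did not overlap among these quantities (5.19 ± 0.252% in the SFRP2 siRNA group, exact two-sided permutation p = 0.1). These sums and shares come from FPKM without a correction for GC content, and they were not recomputed under the other settings. In RAB6A siRNA against NC, the log2 fold change of Junb was 0.40 without and 0.14 with the correction for GC content and exon length. That of Jund was 1.72 without and 1.29 with it. These mRNA shares do not measure dimers.

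**Figure D3:**
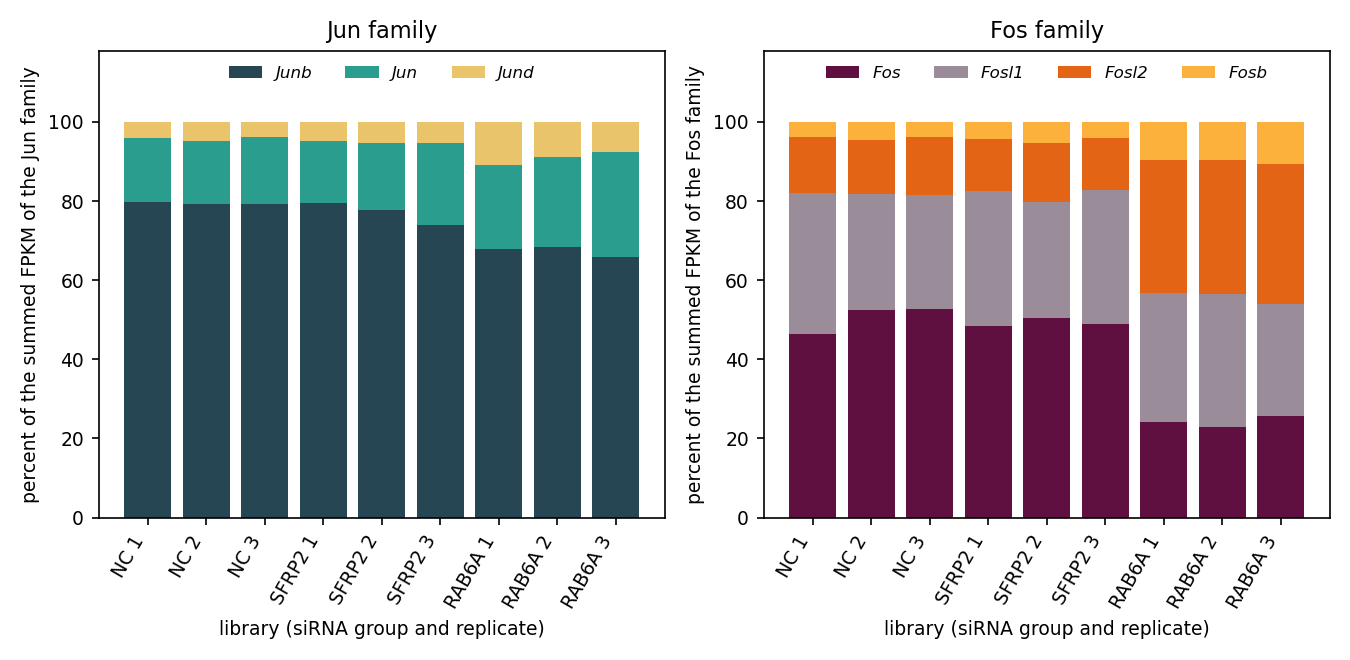
Stacked bars of the percent of the summed FPKM that each gene contributed to the Jun family (left) and the Fos family (right) in each of 9 libraries, labeled by siRNA group and replicate. In the RAB6A siRNA libraries Fosl2 and Fosb take larger shares than in the NC libraries and Fos holds 22.9% to 25.6%, beside 46.5% to 52.7% in the NC libraries.

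To examine whether SFRP2 siRNA changed the AP-1 genes, its libraries were compared with the same NC libraries. None of the 10 AP-1 genes passed the test with limma, as was the case for all 12017 genes tested (0% called). The study reported DEGs for SFRP2 siRNA in RAW264.7 cells with a test for counts, which was not run here. At an unadjusted p under 0.05 there was 1 of 10 AP-1 genes, against 18.5% of all genes, and voom on recovered reads called 0 AP-1 genes and 42 of all genes. The groups did not overlap for 2 of 10 genes, Atf3 and Maff, against 24.7% of all genes. Atf3 was at 59.2, 57.5 and 54.7 FPKM in the SFRP2 siRNA libraries, each below the 3 NC libraries, with a log2 fold change of -0.13 and a 95% interval of -0.24 to -0.03 (limma adjusted p = 0.21). Atf3 was the gene past the unadjusted threshold. Maff was at 8.19, 7.72 and 8.07 FPKM, also below NC, with a log2 fold change of -0.11 (95% interval -0.24 to 0.02, limma adjusted p = 0.34). Both differences were thus small, and neither had an adjusted p under 0.05.

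Fos was at 17.0, 14.2 and 15.5 FPKM and Jun at 25.1, 22.2 and 26.0 FPKM in the SFRP2 siRNA libraries. Both genes overlapped with the NC libraries, and the 95% intervals of the log2 fold change were -0.21 to 0.15 for Fos and -0.21 to 0.13 for Jun. Junb was at 129, 103 and 92.1 FPKM, a wider spread than in the NC libraries, with an interval of -0.46 to 0.09. Jund was at 7.96, 7.19 and 6.51 FPKM, with an interval of -0.07 to 0.41. For these 4 genes the SFRP2 siRNA and NC libraries overlapped. Fosb was at 1.50, 1.52 and 1.29 FPKM and Fosl2 at 4.67, 4.14 and 4.20 FPKM. Fosl1 was at 11.9, 8.26 and 10.8 FPKM and Batf at 10.5, 11.6 and 12.1 FPKM. These 4 genes also overlapped with NC, and over all 10 genes the intervals reached from -0.46 (Junb) to 0.45 (Fosl1), which does not show that the groups were equal but contains no change of 1 on the log2 scale.

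The siRNA groups were also compared with each other, using the same libraries as above. Of the 10 genes, Fos and Maff were higher in the SFRP2 siRNA group (background 35.8% of 12764 genes), and Jun, Junb, Jund, Fosb, Fosl2 and Atf3 were lower (background 37.6%). The log2 fold change, SFRP2 siRNA against RAB6A siRNA, was 1.10 for Fos (SE 0.08, limma adjusted p = 2.3e-05) and 0.40 for Maff (SE 0.06, adjusted p = 0.00066). Among the lower genes it ranged from -0.59 for Junb to -1.55 for Jund. After the correction for GC content and exon length, Jund was at -0.92, a smaller change than that of Fosl2, Atf3 or Jun, and it passed the test under all 19 alternatives (highest limma adjusted p = 0.00129). Fosl1 (0.13, limma adjusted p = 0.46) and Batf (0.27, adjusted p = 0.061) did not pass the test. In this comparison, too, the call of Junb was lost after the correction for GC content and exon length (log2 -0.16, limma adjusted p = 0.17), while Batf (0.80, adjusted p = 0.00088) and Fosl1 (0.53, adjusted p = 0.0057) passed. Batf also passed without replicate 1 of the RAB6A siRNA group (0.37, adjusted p = 0.016) and with all 9 libraries in one fit (adjusted p = 0.046).

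The proteins that pair with AP-1 factors were described from a list of 30 other bZIP genes, of which 24 passed the filter on low values. Between RAB6A siRNA and NC, 7 of the 24 rose and 10 fell, beside 37.6% and 36.5% of all genes, with a median log2 fold change of -0.08. Maf, the large Maf factor that drives Il10 in macrophages, fell from 13.5 ± 1.87 to 0.422 ± 0.0704 FPKM (log2 -4.71, SE 0.14, limma adjusted p = 8.9e-07). Jdp2, a repressor that dimerizes with Jun proteins, fell from 137 ± 3.58 to 25.4 ± 2.65 FPKM (log2 -2.44, limma adjusted p = 1.1e-06). At 137 FPKM, Jdp2 was above the level of Junb in the NC group, and in the RAB6A siRNA group it was below Jun. Ddit3 (CHOP), the bZIP factor of the integrated stress response, rose from 15.9 ± 0.785 to 63.5 ± 5.35 FPKM (log2 1.99), and Bach1, a partner of small Maf proteins, from 1.19 ± 0.286 to 3.18 ± 0.230 FPKM (log2 1.37). In SFRP2 siRNA against NC, 0 of 24 passed, with 6 at an unadjusted p under 0.05, beside 18.5% of all genes.

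Of 32 kinases and adaptors upstream of AP-1, 26 were tested, and 8 rose and 7 fell between RAB6A siRNA and NC (median log2 fold change 0.02). These counts are not above the background of 37.6% and 36.5% of all genes. Map3k5 (ASK1), which feeds the JNK and p38 pathways, rose from 0.939 ± 0.125 to 2.50 ± 0.314 FPKM (log2 1.32), and Mapk3 (ERK1) from 38.5 ± 2.07 to 90.9 ± 4.50 FPKM (log2 1.24). Mapk8 (JNK1) fell from 4.17 ± 0.0516 to 2.27 ± 0.302 FPKM (log2 -0.85), and Tab2, an adaptor of the kinase TAK1, from 47.4 ± 2.15 to 30.7 ± 3.68 FPKM (log2 -0.63). These values are mRNA levels, and kinase activity was not measured. Of the 9 SRF, ternary complex and MEF2 factors, which act on the promoters of Fos and Jun, 3 rose and 3 fell, near the same background shares. Elk3 (log2 0.58) and Mef2c (0.47) rose, and Mrtfb (-0.75) and Srf (-0.52) fell.

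Among 17 other immediate early genes tested of 19 listed, 12 rose and 4 fell, beside 37.6% and 36.5% of all genes, with a median log2 fold change of 0.81, beside 0.03 over all genes tested. These counts and this median include Nr4a3 (log2 2.06), which entered the test through its level in the RAB6A siRNA group. It did not pass the filter in SFRP2 siRNA against NC. The orphan nuclear receptor genes Nr4a1 and Nr4a2 rose from 3.69 ± 0.615 to 22.7 ± 1.78 FPKM (log2 2.60) and from 0.826 ± 0.10 to 5.22 ± 1.08 FPKM (log2 2.51). The zinc finger genes Egr2 and Klf10 fell from 1.08 ± 0.110 to 0.363 ± 0.0347 FPKM (log2 -1.35) and from 2.33 ± 0.215 to 1.12 ± 0.449 FPKM (log2 -1.06). The immediate early genes thus moved in both directions, as the AP-1 genes did. Of 8 genes for the turnover of AP-1 proteins and mRNAs, 2 rose and 4 fell, beside the same 37.6% and 36.5%. Zfp36 rose from 157 ± 8.15 to 428 ± 12.0 FPKM (log2 1.45), and its relative Zfp36l1 from 11.4 ± 0.722 to 38.2 ± 3.77 FPKM (log2 1.73). Det1, an adaptor of the ubiquitin ligase that acts on Jun, fell from 2.14 ± 0.228 to 0.731 ± 0.102 FPKM (log2 -1.43), and Fbxw7, which also targets Jun, from 5.23 ± 0.348 to 2.73 ± 0.0574 FPKM (log2 -0.91). Zfp36 stands in both of these lists.

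Genes known as AP-1 targets in macrophages went in both directions, as all genes did. Of 21 tested of 26 listed, 10 rose and 10 fell in RAB6A siRNA against NC, beside 37.6% and 36.5% of all genes, with a median log2 fold change of -0.22. Timp1, an inhibitor of matrix proteases, rose from 0.357 ± 0.0858 to 1.68 ± 0.0933 FPKM (log2 1.98), and the collagenase gene Mmp13 from 0.297 ± 0.0874 to 1.02 ± 0.163 FPKM (log2 1.51). Both were under 0.5 FPKM in every NC library and passed the filter only through the RAB6A siRNA group. Their direction was thus set by the filter, and they count among the 10 that rose. The cytokine gene Il10 fell from 3.62 ± 0.345 to 0.488 ± 0.169 FPKM (log2 -2.70), and Acp5, a phosphatase gene of osteoclasts, from 3.21 ± 0.221 to 0.728 ± 0.0326 FPKM (log2 -1.99). Each gene named from these lists for RAB6A siRNA against NC had an adjusted p of at most 0.0051 with limma and no overlap between the groups. With SFRP2 siRNA, 0 genes of the 6 lists passed the test with limma or with voom. At an unadjusted p under 0.05 there were 6 of 26 kinases and adaptors, 2 of 9 SRF, ternary complex and MEF2 factors, 3 of 19 AP-1 targets tested, and 0 of the 16 other immediate early and 8 turnover genes tested, beside 18.5% of all genes.

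**Figure D4:**
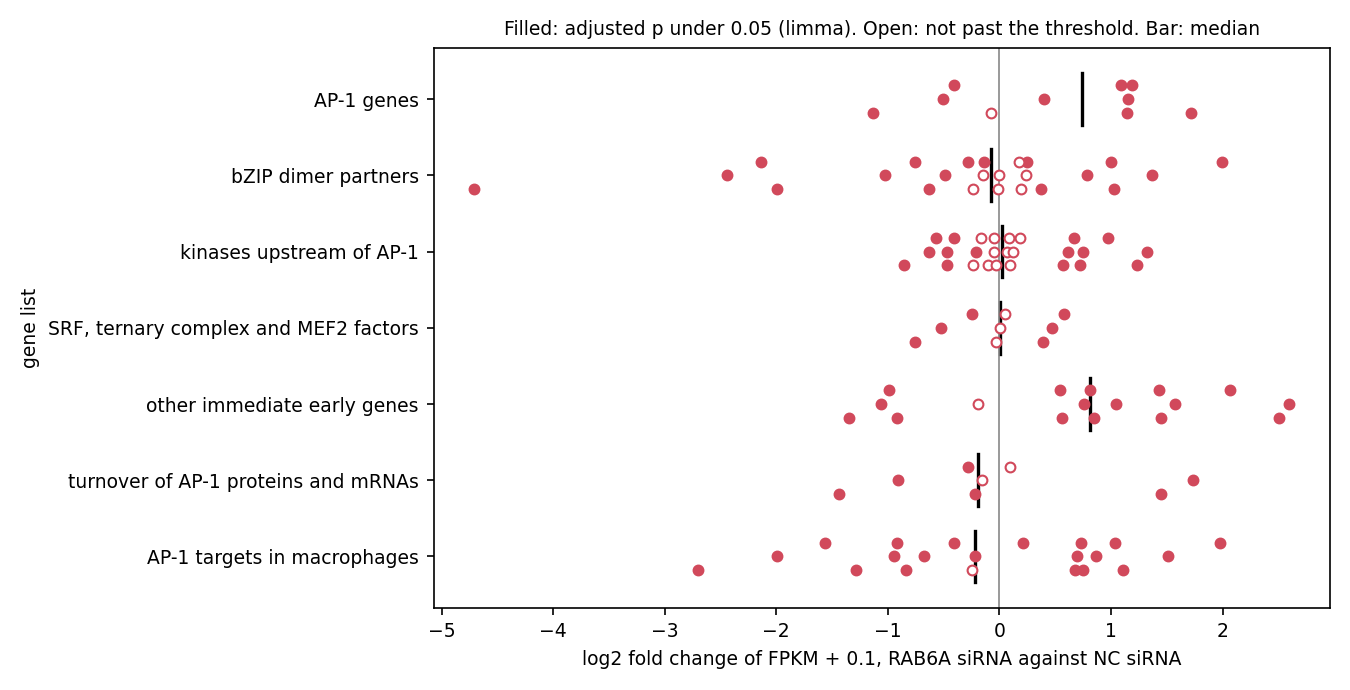
Log2 fold changes of FPKM + 0.1, RAB6A siRNA against NC, for the AP-1 genes and for 6 lists of related genes, each point a gene, filled where the limma adjusted p was under 0.05, and each bar the median of a list. Genes on both sides of 0 pass in every list, and the medians of the AP-1 genes (0.74) and of the other immediate early genes (0.81) lie above those of the other lists. The points of Nr4a3, Timp1 and Mmp13 are of genes that passed the filter through the RAB6A siRNA group.

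For the 3 AP-1 genes of the highest level in the NC group, the genes with the most similar profile were found among 12549 genes by the root mean square distance of log2(FPKM + 0.1), centred on each gene's mean over 9 libraries. For Junb these were Brk1, Tarbp2 and Ssbp4, at distances of 0.06, 0.06 and 0.06. For Atf3 they were Sft2d2, Sat1 and Adprh, at 0.05, 0.06 and 0.06. For Jun they were Pax3, Gpsm3 and Ell, at 0.06, 0.07 and 0.07. As an example, Sat1 was at 122 ± 5.10 FPKM in the NC group, 110.4 ± 4.24 in the SFRP2 siRNA group and 251 ± 9.15 in the RAB6A siRNA group. None of the 9 genes is an AP-1 gene of the set examined here.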

How the data were processed

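The authors deposited FPKM per gene for 9 mRNA-seq libraries of RAW264.7 cells, with Ensembl identifiers and without gene names. The submitters' processing notes name HISAT2, Subread and featureCounts. Versions, genome build, annotation and the strand setting are not given in the sources used here. GENCODE M21 on GRCm38 named 27533 of the 28137 identifiers, and its gene models gave exon lengths and coordinates. GC content was that of the longest transcript of each gene.

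FPKM multiplied by exon length was a whole multiple of a single step within 0.03 for 27084 named genes (98.4%) in all libraries, including all 10 AP-1 genes, and this step was taken as 1 read to state depth. For Jund this held at an exon length of 1667 bases instead of 1668.

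Groups came from the labels. The study's methods name a test for counts, which FPKM values are not. Each of the 3 group pairs was therefore tested with limma 3.58.1 in R 4.3.3 on log2(FPKM + 0.1), two-sided, by lmFit and eBayes with an intensity trend. Genes entered a test where their FPKM averaged 0.5 or more across its 6 libraries, and p-values were adjusted over all of these genes (Benjamini-Hochberg). A gene was called at an adjusted p under 0.05, and DEGs exceeded 1 on the absolute log2 scale as well. Both siRNA groups were set against the same NC libraries. Values are means ± SD of 3 libraries. The main fit, replicate block, quantile scaling, GC and length correction and fit of all 9 libraries were tested on simulated data. This was done for RAB6A siRNA against NC, with far fewer genes changed than were called in the data. The other settings given below were not tested in this way.

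The genes named were the 10 AP-1 genes, from each list the 2 genes that rose most and the 2 that fell most among those called without overlap in a comparison with NC, and the 3 most similar profiles of the 3 AP-1 genes highest in NC. The members and lists were chosen with earlier results of these data known, and the lists come from general pathway knowledge.

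Other settings tried were pseudocounts of 0.01 and 1, the filter dropped or raised to 1, scaling by quantiles, by median of ratios or by median centring, eBayes without a trend, a replicate block, all 9 libraries in one fit, voom on recovered reads, a spline correction (5 degrees of freedom) for GC content and exon length, this correction with the block, and each library left out in turn. Python 3.11.15 with numpy 2.4.6, pandas 2.3.3, scipy 1.17.1 and matplotlib 3.10.9 was used for the other steps.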

Additional observations from a re-analysis of the deposited data

How the results depend on the processing

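The number of AP-1 genes called was within 1.5 times the reported one under all 19 alternatives in each comparison (9, 0 and 8 as reported). Which genes were called did change with the correction for GC content and exon length, as given above for Junb, Fosl1 and Batf. With this correction and the replicate block together, the limma adjusted p in RAB6A siRNA against NC was 0.060 for Junb and 0.023 for Fosl1. Directions turned only for differences that had not passed the test. In SFRP2 siRNA against NC, the log2 fold changes after the correction, with or without the replicate block, were 0.047 for Fos, 0.020 for Fosl2, 0.071 for Jun and 0.028 for Maff. With each library left out in turn, they ranged from -0.096 to 0.032 for Fos, from -0.057 to 0.21 for Fosl1, from -0.11 to 0.014 for Fosl2 and from -0.090 to 0.023 for Jun. In RAB6A siRNA against NC, Fosl1 ranged from -0.17 to 0.073, the latter without NC replicate 1. Over all genes past the filter, same-numbered libraries did not deviate together (correlations of deviations from the group means of -0.06 to 0.05), so that the numbers were not taken as pairs. A correlation over many genes cannot show whether single genes deviated together. With the replicate block, 9 AP-1 genes were called in RAB6A siRNA against NC and 0 in SFRP2 siRNA against NC, where 2988 genes had an unadjusted p under 0.05 and 0 were called, beside 2220 without the block. The block changed no call of an AP-1 gene. No scaling shifted the median of all genes by over 0.1 on the log2 scale. Fosb, the least covered member, had 279 reads in its lowest library.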
